A study of Mus musculus with 2 samples.

Results

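Macrophages in S phase were picked out of F4/80+ peritoneal cells by their transcripts, as the cells with much replication mRNA and little mitotic mRNA. A cell was taken when the unique molecular identifiers (UMIs) of Mcm3, Mcm4, Mcm5, Mcm6, Mcm7, Hells, Lig1, Dut, Uhrf1 and Cdca7 summed to 10 or more per 10000 (the S sum). The sum of Mki67, Top2a, Birc5, Cenpf, Ube2c, Nusap1, Prc1, Cdk1 and Ccnb1 (the G2/M sum) had to be under 5 per 10000. This gave 282 of 12619 filtered cells, 217 of 6360 in the knockout library and 65 of 6259 in the wild type library. They were set against 5664 knockout and 5726 wild type cells of the same library with an S sum under 4 and a G2/M sum under 2, called comparison cells here.

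The cells came from the peritoneal lavage of Ankrd22-/- mice, made with CRISPR/Cas9, and of Ankrd22+/+ mice, and were sorted on F4/80, the macrophage surface antigen encoded by Adgre1. Each genotype gave 1 library of the 10x Genomics Single Cell 3' v3 kit, so library and genotype cannot be told apart and each difference reported compares single libraries without a test. The strain, sex and age of the mice and the number of animals pooled are not given in the sources used here. Intervals are exact (Poisson for levels, Clopper-Pearson for shares, 95%) and cover counting error only.

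S phase is the stage of the cell cycle in which the genome is copied. The MCM helicase is loaded on origins in G1 and opens DNA at the forks, polymerases and the clamp PCNA copy the strands, and new DNA is packed with histones and methylated. Resident peritoneal macrophages are long-lived cells known to keep their number partly by dividing in place, and passage into S phase needs cyclin-dependent kinases, which free E2F factors to switch on replication genes and which CDK inhibitors hold back.

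The targeted gene had 0 UMIs in both libraries, over 6706 knockout and 6315 wild type barcodes. At 3 counts, 0 allows Ankrd22 up to 0.0270 CPM (pooled counts, scaled so that each class has an equal total) in the library of the knockout and 0.0310 CPM in the other, so it does not check the labels. The libraries also stood apart in RNA content: the median mitochondrial share of the comparison cells was 1.48% for the knockout and 0.697% for the wild type cells. The same gap was seen in S phase cells, at 1.46% and 0.692%, and its part in the differences between libraries was not tested. The libraries shared 15 barcodes, and 0 of them were S phase cells.

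The label was checked on genes that the rule did not use. Of 15 S phase genes outside the rule, 15 were at least 2-fold higher in S phase than in comparison cells of the knockout library. In the wild type library 15 were as well, although 11 and 12 of them reached 20 CPM. Among all genes at 20 CPM outside the rule, 3.6% and 6.5% were. Only Pcna and Slbp reached 20 CPM in comparison cells. The others that reached it did so through S phase cells and could not lie on the lower side. Ccne1 rests on 21 and 9 UMIs in S phase cells. This check sets the members only against cells low on both sums, so it does not place them within S phase or at its entry. The 7 macrophage markers checked each lay within 2-fold between the classes of a library. Adgre1 stood at 604 CPM in knockout and 543 CPM in wild type S phase cells, against 619 and 689 CPM in comparison cells. Csf1r, the receptor for the macrophage growth factor CSF1, stood at 270 and 335 CPM, against 343 and 362 CPM. Lyz2, lysozyme, was lower as well, at 22596 and 45257 CPM, against 25844 and 60762 CPM. Cd68 was higher, at 393 and 414 CPM, against 348 and 290 CPM, as was the Fc receptor gene Fcgr1, at 38.6 and 30.7 CPM, against 22.5 and 28.7 CPM. Markers of other cell types were summed by list. The 8 B cell markers gave 46 UMIs (8.71 CPM) in knockout and 3 UMIs (2.14 CPM) in wild type S phase cells, with Ms4a1 at 0 in both, against 20.3 and 21.3 CPM in comparison cells. The 9 mesothelial and fibroblast markers were at 0 in S phase cells of both libraries, which at 3 counts allows up to 0.568 and 2.14 CPM, and the 10 T and NK cell markers gave 3 and 2 UMIs. The 8 neutrophil markers summed to 62.3 and 70.7 CPM against 85.5 and 87.7 CPM in comparison cells, with S100a9, Retnlg and Ngp at 0 in S phase cells of both libraries. The 7 dendritic cell markers summed to 3.03 and 1.43 CPM against 9.72 and 8.52 CPM, and the 7 red cell and platelet markers to 16.5 and 5.71 CPM against 87.1 and 32.7 CPM. The 6 eosinophil markers gave 2 UMIs in S phase cells of each library (0.379 and 1.43 CPM, against 0.428 CPM in comparison cells of both). The share of cells with any UMI of a list also depends on depth, which was greater in S phase cells. For B cell markers this share was 12.9% in S phase cells of the knockout and 3.08% in the wild type ones, against 6.13% and 4.0% of comparison cells. For red cell and platelet markers it was 31.3% and 12.3%, against 21.0% and 4.49%, and for neutrophil markers 71.9% and 66.2%, against 68.7% and 65.7%. A setting without cells that carry a B cell marker UMI is given in the last section, and the part of the other lists in the results was not tested. A doublet score placed 4 of 217 knockout and 2 of 65 wild type S phase cells among the barcodes with the highest scores.

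S phase cells held more UMIs and genes than comparison cells, and their S sums spanned a wide range. Their median depth was 24544 UMIs for the knockout and 23152 UMIs for the wild type cells, against 15578.5 and 14443 UMIs in comparison cells. They held a median of 4527 and 4110 genes, against 3465 and 3072, and after thinning each cell to 5000 UMIs still 1853 and 1745 genes, against 1769 and 1617. The S sum ran from 10.1 to 27.4 for the knockout (median 14.1) and from 10.0 to 27.5 for wild type (median 13.5). Behind these sums stood a median of 34 UMIs of the rule genes per cell for the knockout and 30 for the wild type cells, and 5 cells of each library had fewer than 10. Near the threshold, 33 knockout and 8 wild type cells lay between 9 and 10, and 33 and 7 cells between 10 and 11, so the rule divides a continuous range. At the other limit, 10 and 8 cells had a G2/M sum of 4 to 5, and 11 and 8 cells with a high S sum lay just outside it at 5 to 6.

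**Figure D1:**
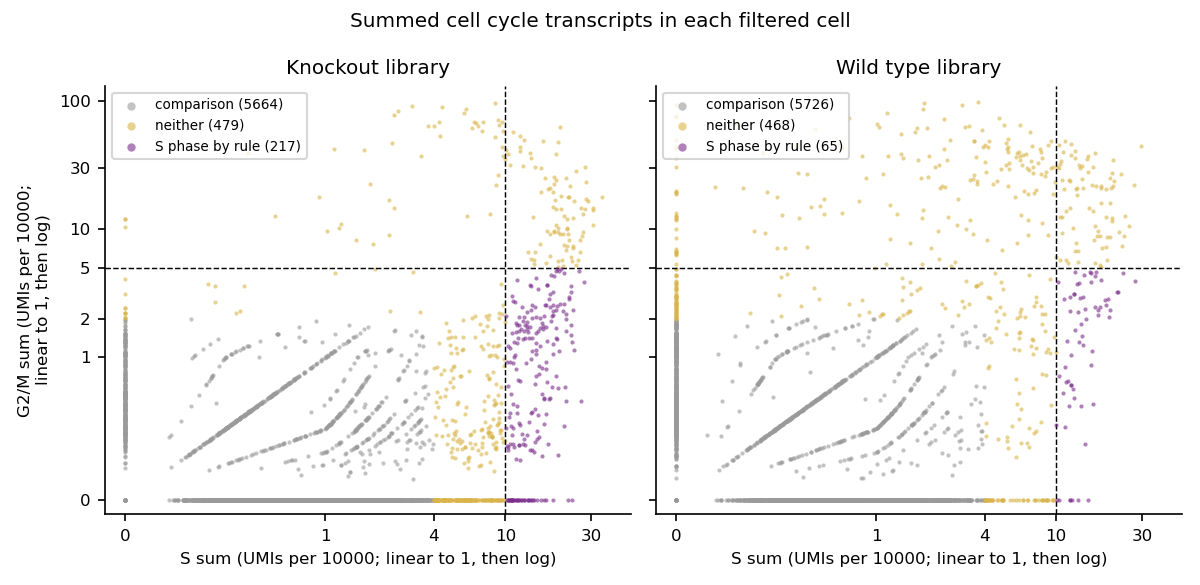
S sum (horizontal) and G2/M sum (vertical) of each filtered cell, in UMIs per 10000, both axes linear to 1 and then logarithmic, with dashed lines at the limits of the rule. Each point is a cell, and the 217 knockout and 65 wild type S phase cells fill the lower right of each panel without a gap to their neighbours.

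The promoters of the rule genes are shown because most of them carry letters of the kind that E2F factors are known to bind. The octamers TTTCCCGC, TTTCGCGC, TTTGCCGC and TTTGGCGC were searched on both strands in RefSeq windows (GRCm38.p6) from 250 bases before to 50 bases after each start. Matches are in capitals, each line is written along the strand of its gene, and where 2 matches overlap they form 1 run of capitals.
Mcm5, chr8:75109330-75109393 (+): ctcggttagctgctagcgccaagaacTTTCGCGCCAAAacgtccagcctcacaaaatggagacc
Mcm6, chr1:128359719-128359841 (-): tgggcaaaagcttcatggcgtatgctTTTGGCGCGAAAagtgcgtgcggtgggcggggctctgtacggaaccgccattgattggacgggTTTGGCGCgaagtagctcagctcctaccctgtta
Mcm3, chr1:20820266-20820294 (-): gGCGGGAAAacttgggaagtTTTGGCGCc
Mcm7, chr5:138172033-138172056 (-): ttcgaaccGCGGGAAAcagggtgt
Hells, chr19:38930920-38930943 (+): caccgggtTTTCCCGCgaaagaga
Lig1, chr7:13278844-13278867 (+): caaagtgcGCGCGAAAtctgtgtg
Uhrf1, chr17:56304102-56304161 (+): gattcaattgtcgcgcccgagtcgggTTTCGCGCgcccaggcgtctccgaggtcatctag
Cdca7, chr2:72476140-72476163 (+): gtcccggcGCGGGAAAgccggtgg
Of the 9 rule genes with a window, 8 (88.9%) held a match, and the window of Dut held none. A gene counted when any of its windows held a match. By window, a match was found in 744 of 32851 (2.26%). By gene, it was found for 704 of 27025 symbols (2.6%). Among the 4817 genes tested in both libraries outside the rule, 3853 had a window and 207 of these held a match (5.37%). Of the 176 genes outside the rule that were at least 2-fold higher in S phase cells of both libraries, 145 had a window and 45 of these held a match (31.0%). A match is a description of these letters and not evidence of binding.

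The 10 rule genes are given as a description, since they chose the cells. Mcm6, a helicase subunit, was at 243 CPM (230 to 257) in knockout and 225 CPM (201 to 251) in wild type S phase cells, against 15.1 and 9.0 CPM in comparison cells. Hells, a chromatin remodeller that aids DNA methylation, was at 155 CPM (145 to 166) and 86.4 CPM (71.7 to 103), against 3.22 and 1.04 CPM. Uhrf1, which brings the methyltransferase DNMT1 to newly copied DNA, was at 60.8 CPM (54.3 to 67.8) and 85.6 CPM (71.0 to 102), against 0.823 and 0.579 CPM. The intervals of S phase and comparison cells did not overlap for these genes in either library. The rule chose both classes by the sum of these genes, so this gap is no support for the label. The log2 ratios of S phase over comparison cells, taken with 1 CPM added to each level, ran from 3.76 (Mcm3) to 5.21 (Hells) in the knockout and between 4.07 (Dut) and 5.78 (Uhrf1) for wild type.

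Across all genes, differences in S phase cells lay mostly on the higher side. Of 5334 genes outside the rule that reached 20 CPM in at least 1 class, 192 (3.6%) passed 2-fold upward and 25 (0.469%) downward in knockout S phase cells. In the wild type library 329 of 5064 (6.5%) were higher and 50 (0.987%) lower, so 86.8% of the genes past 2-fold lay on the higher side. Scaling by TMM factors shifted the wild type log2 ratios by -0.19 and left 239 genes above and 99 below 2-fold (70.7% on the higher side), while median of ratios shifted them by -0.17 and left 244 and 94 (72.2%). The median gene lay at 0.04 for the knockout and 0.12 for the wild type cells. Of the 4817 genes tested in both libraries, 179 were higher for the knockout and 292 for wild type, and 176 in both, which is 98.3% and 60.3% of these. On the lower side 23 and 39 of the 4817 lay past 2-fold and 16 in both, which is 69.6% and 41.0%, and 0 genes lay 2-fold on opposite sides. The rule used this contrast, so these counts and those of the gene lists below describe the cells chosen.

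Most measured genes that license and fire origins were higher in S phase than in comparison cells. At least 2-fold higher were 11 of 15 measured members of the licensing list for the knockout (median log2 ratio 2.87) and 12 of 13 for wild type (3.26). Among all genes 3.6% and 6.5% were. A member was measured if it reached 20 CPM in at least 1 class. Of the 26 listed, 4 reached it in comparison cells of at least 1 library. The other measured members entered only through S phase cells and so could not lie on the lower side. Mcm2, the helicase subunit that the rule leaves out, was at 67.8 and 78.5 CPM in S phase cells, against 4.33 and 3.07 CPM in comparison cells. Mcm10, which helps to activate the helicase, was at 22.2 and 23.6 CPM, against 0.214 and 0.174 CPM. Its log2 ratios of 4.25 and 4.39 were near each other in the libraries. Gins1 and Gins2, subunits of the GINS complex that joins the helicase at the fork, had ratios of 3.5 and 3.36 for the knockout and 3.20 and 4.26 for the wild type cells.

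The machinery of the fork and its supply of nucleotides stood higher as well. Of the polymerase, clamp and fork list, 24 of 27 measured members for the knockout (median 2.01) and 27 of 29 for wild type (2.42) were at least 2-fold higher. Among all genes 3.6% and 6.5% were. Of the 31 listed, 10 reached 20 CPM in comparison cells of at least 1 library. The other measured members entered only through S phase cells and could not lie on the lower side. Pcna, the sliding clamp, was at 224 CPM (212 to 237) in knockout and 289 CPM (262 to 319) in wild type S phase cells, against 52.5 and 53.0 CPM in comparison cells. Prim1, the primase subunit, was at 47.5 and 47.1 CPM in S phase cells and 1.54 and 1.24 CPM in comparison cells. The nucleotide supply list had 10 of 19 (median 1.05) and 15 of 20 measured members (1.34) past 2-fold. Of the 24 on this list, 10 reached 20 CPM in comparison cells of at least 1 library, and the same limit holds for the others measured. Among its members that make or save thymidylate, Tk1, thymidine kinase, had log2 ratios of 4.19 and 4.24. Tyms, thymidylate synthase, was at 68.4 and 110 CPM, against 12.3 and 13.5 CPM.

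Chromatin assembly genes and genes of fork protection were higher too. Of the assembly and methylation list, 13 of 20 measured members (median 2.04) and 17 of 20 (2.31) were at least 2-fold higher. Among them were the CAF-1 subunit genes Chaf1a (3.92 and 4.69) and Chaf1b (3.61 and 4.38). Of the 24 listed, 10 reached 20 CPM in comparison cells of at least 1 library. Dnmt1, the maintenance methyltransferase, was at 127 and 122 CPM in S phase cells, against 18.5 and 11.8 CPM. Of the fork protection and repair list, 15 of 15 measured members (median 3.06) and 14 of 14 (3.9) passed 2-fold, beside 3.6% and 6.5% of all genes. Of the 37 listed, 2 reached 20 CPM in comparison cells of at least 1 library. Nearly all measured members thus entered only through S phase cells and could not lie on the lower side. Chek1, the checkpoint kinase that answers stalled forks, was at 40.5 CPM (35.3 to 46.3) and 48.5 CPM (37.7 to 61.5), against 0.588 and 0.370 CPM in comparison cells. Clspn, which encodes the CHK1 adaptor claspin, had log2 ratios of 4.48 and 4.85, and Dtl, the substrate receptor of a PCNA-dependent ubiquitin ligase, had 4.67 and 4.17.

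**Figure D2:**
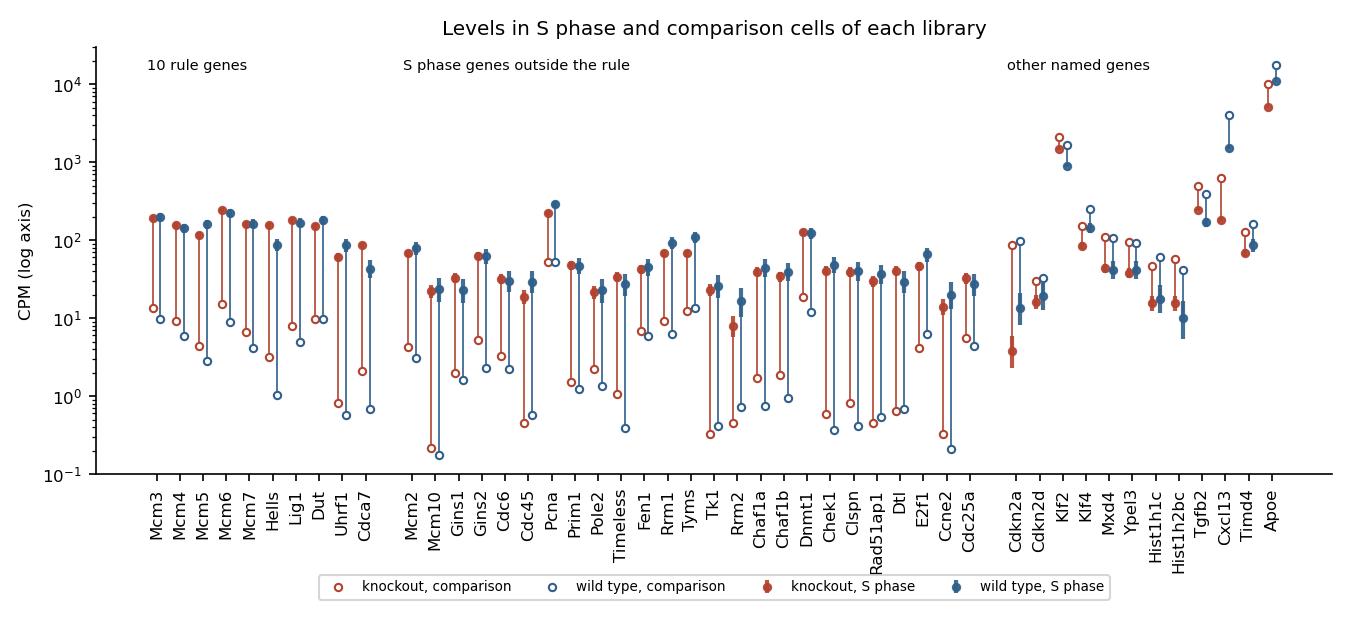
CPM on a logarithmic axis in S phase (filled, bars are exact 95% Poisson intervals) and comparison cells (open) of the knockout (red) and wild type (blue) library, for the 10 rule genes, S phase genes outside the rule and other named genes. In the first pair of groups each filled point lies above its open point, as for Pcna at 224 against 52.5 CPM in the knockout library, and in the last group each lies below, as for Cdkn2a at 3.79 against 85.7 CPM.

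Many genes of the G1/S switch were higher, among them E2f1, Cks1b and Cdc25a. Of the cyclin, E2F and pocket protein list, 8 of 15 measured members (median 1.07) and 9 of 13 (1.41) were at least 2-fold higher. Among all genes 3.6% and 6.5% were. Of the 30 listed, 6 reached 20 CPM in comparison cells of at least 1 library. The other measured members entered only through S phase cells and could not lie on the lower side. E2f1, an activating E2F factor, was at 46.4 and 65.7 CPM in S phase cells, against 4.14 and 6.24 CPM. Rbl1, the pocket protein p107, had log2 ratios of 2.15 and 2.58. The retinoblastoma gene Rb1 had -0.31 and -0.50. Among D cyclins and their kinases, which were picked from this list after their values were seen, Ccnd1 was at 958 and 630 CPM, against 494 and 331 CPM, and Cdk4 at 171 and 166 CPM, against 77.8 and 72.7 CPM. Both were close to 2-fold in both libraries (log2 ratios 0.95 and 0.93, and 1.12 and 1.18), while Ccnd3 had log2 ratios of 0.47 and 0.37.

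The CDK inhibitor gene with the lowest ratio was Cdkn2a, which encodes the CDK4 and CDK6 inhibitor p16INK4a and, from another reading frame, the p53 activator p19ARF. It was at 3.79 CPM (2.31 to 5.85, from 20 UMIs) in knockout and 13.6 CPM (8.16 to 21.2, from 19 UMIs) in wild type S phase cells. In comparison cells it was at 85.7 CPM (83.8 to 87.6) and 98.4 CPM (96.3 to 101), so the log2 ratios were -4.18 and -2.77. A minority of cells carried it, with a UMI in 22.5% of knockout and 29.8% of wild type comparison cells. Among S phase cells, which were deeper, 6.91% and 21.5% had a UMI of Cdkn2a. In the members 1 cell gave 30% of its UMIs for the knockout and 1 cell 26.3% for wild type. Reads at the 3' end do not tell its transcripts apart. The window before 1 of its starts, shown as the contrast to the rule genes, holds an octamer match too.
Cdkn2a, chr4:89294685-89294744 (-): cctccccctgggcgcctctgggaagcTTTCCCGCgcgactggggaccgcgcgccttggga
Its neighbour Cdkn2b, the p15INK4b gene, also picked after its values were seen, was at 3.41 and 7.85 CPM, against 20 and 23.6 CPM. The list of CDK inhibitors and quiescence genes lay mostly below comparison level, and most members stayed within 2-fold. In the knockout 0 of 14 were 2-fold higher and 1 lower (median -0.48). In the wild type library 0 of 16 were higher and 3 lower (-0.69). Among all genes 0.469% and 0.987% were lower, and the medians were 0.04 and 0.12. Of the measured members of this list, 1 had a knockout ratio above 0, and 0 had such a ratio for wild type. The knockout member above 0 was Cdkn1a, the p53 target p21, at 175 CPM in S phase and 171 CPM in comparison cells, with 253 and 316 CPM in the wild type library. Klf2, a factor of quiescent lymphocytes and resting endothelium, was at 1483 and 905 CPM in S phase cells, against 2074 and 1664 CPM.

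Of the genes outside all lists, the 12 with the highest smaller ratio of the libraries were named. Dnajc9, a histone chaperone, was at 114 and 110 CPM, against 18.4 and 10.4 CPM, and had log2 ratios of 2.57 and 3.28. Nsd2, a histone H3 methyltransferase (2.28 and 2.43), Psip1 (2.08 and 2.06), the lamina gene Tmpo (1.65 and 1.89) and Dek (1.55 and 1.76) came next. The others, Nrm, Ccdc34, Siva1, Hpf1, Sae1, Rbbp8 and Srsf7, had ratios from 1.21 (Srsf7) to 1.45 (Nrm) for the knockout and from 1.24 (Srsf7) to 1.90 (Nrm) for the wild type cells. On the lower side Mxd4, a MYC antagonist, was at 43.6 and 41.4 CPM, against 109 and 108 CPM, and Ypel3 at 38.3 and 41.4 CPM, against 94.9 and 91.6 CPM. Clec7a, the beta-glucan receptor dectin-1, had ratios of -1.01 and -1.06, and the complement gene C4b of -0.87 and -0.91. Apoe, an abundant lipid carrier of these cells, was at 5088 and 10975 CPM, against 9939 and 17415 CPM.

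Histone genes were split between both sides. Of 15 measured members in the knockout 3 were at least 2-fold higher and 2 lower, and of 12 in the wild type library 4 were higher and 2 lower. Among all genes 3.6% and 6.5% were higher and 0.469% and 0.987% lower. Slbp, which encodes the protein that binds the stem-loop of replication-dependent histone mRNA, was at 118 and 113 CPM, against 33.3 and 28.7 CPM. Hist1h1b, a replication-dependent linker histone, was at 29.2 and 24.3 CPM, against 9.21 and 4.47 CPM. The linker histone gene Hist1h1c was lower, at 15.7 and 17.8 CPM against 46.6 and 61.4 CPM, as was Hist1h2bc, at 15.7 and 9.99 CPM against 57.8 and 41.1 CPM. Replication-dependent histone mRNA largely lacks a poly(A) tail, which the 3' kit primes on, so these levels count only the tailed part.

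Several S phase transcripts were far higher in cells that the limit on mitotic genes left out. Cells with an S sum of 10 or more and a G2/M sum of 5 or more, which were not members, numbered 89 (knockout) and 81 (wild type). Rrm2, the regulated subunit of ribonucleotide reductase, was at 7.95 and 16.4 CPM in the members and at 174 and 234 CPM in those cells. Hist1h1b stood at 746 and 522 CPM there, and Pclaf, the PCNA-associated factor, at 622 and 811 CPM, against 30.1 and 94.2 CPM in the members. Ccne2, cyclin E2, was also higher there, at 94.5 and 73.1 CPM, against 14.0 and 20 CPM in the members. The sum of 10 S phase genes outside the rule (Mcm2, Pcna, Gins2, Tyms, Rrm1, Rrm2, Clspn, Fen1, Slbp and Cdc45) had a median of 6.25 and 8.61 per 10000 in the members and of 17 and 17.5 in those cells, against 1.07 and 0.984 in comparison cells. The median of this sum was thus highest in cells that the rule leaves out.

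Levels within the members differed along the G2/M sum, which the rule used. In the knockout library 40 members had a G2/M sum of 0, 125 one above 0 and under 2, and 52 one of 2 to 5, and in the wild type library 7, 25 and 33. Along these ranges Pcna was at 168, 201 and 306 CPM for the knockout and at 168, 230 and 345 CPM for the wild type cells. Mcm5 was at 86.5, 115 and 138 CPM and at 98.1, 127 and 192 CPM. Both were higher in each next range of both libraries, although the wild type cells with a G2/M sum of 0 were only 7 and had a median depth of 6894 UMIs. Rrm2, at 0.449 and 0.718 CPM in comparison cells, was highest in the last of these ranges, at 2.75, 4.74 and 18.0 CPM for the knockout and 0, 3.49 and 27.8 CPM for the wild type cells, where a count of 0 allows up to 42.0 CPM. Ccnd1 took another course, at 978, 952 and 961 CPM in the knockout members, and at 663 CPM in cells with both sums high and 409 CPM in those with the G2/M sum alone. In the wild type library it was at 322, 657 and 639 CPM in the members, and at 321 and 119 CPM in those 2 kinds of cell. Cdkn2a was already low in cells with an S sum of 4 to 10, at 17.1 and 18.3 CPM, and stood at 49.4 and 68.3 CPM in cells with the G2/M sum alone.

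**Figure D3:**
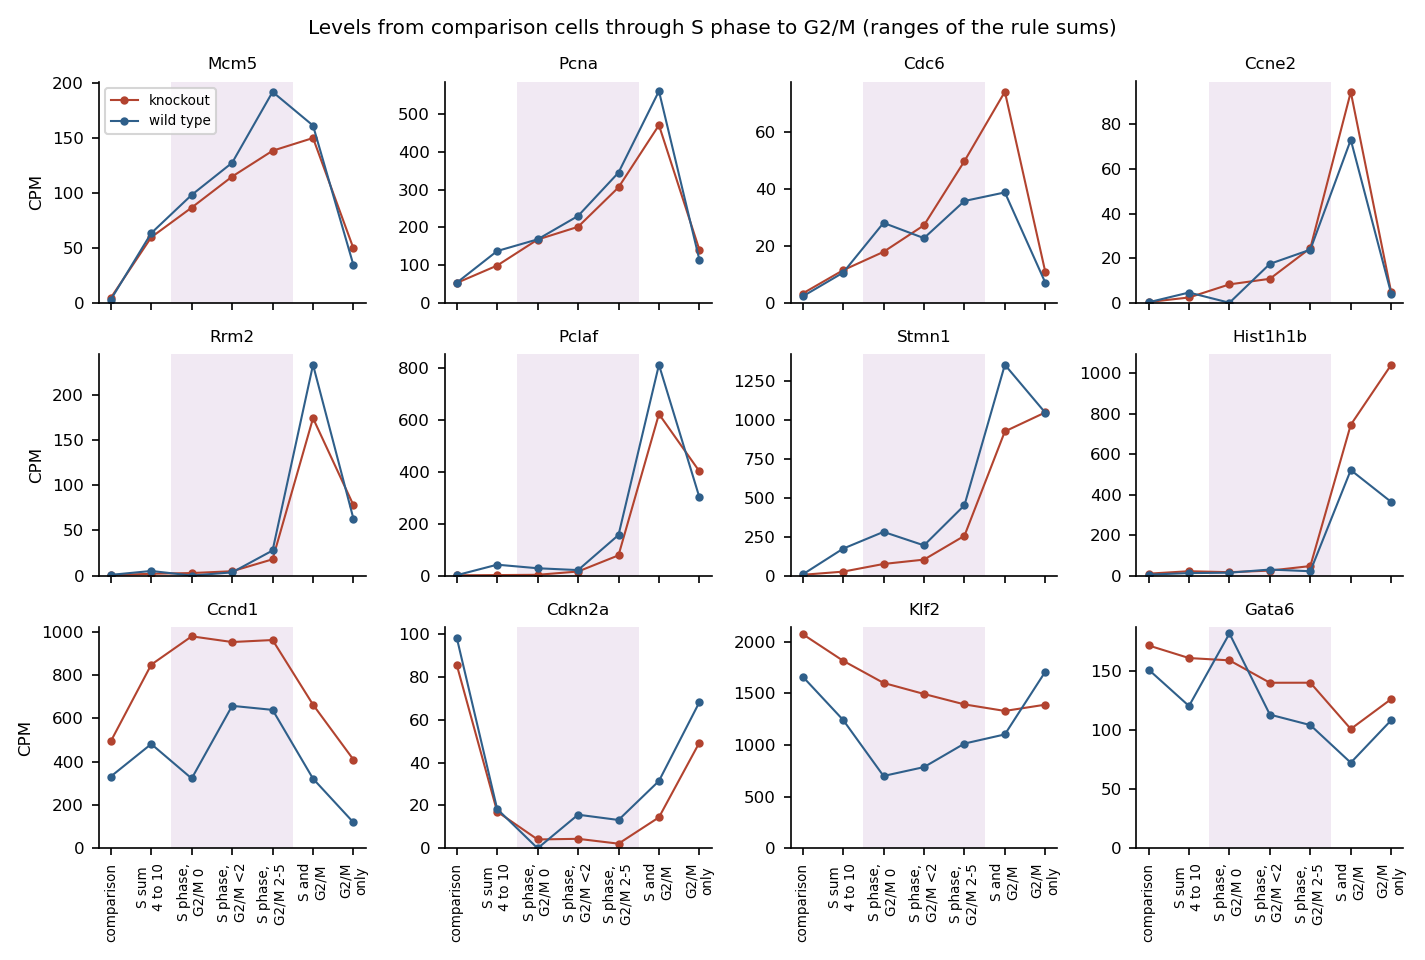
CPM of 12 genes (linear axes from 0) in cells ordered by the 2 sums, from comparison cells through an S sum of 4 to 10 and the S phase members split by G2/M sum (shaded) to cells with both sums high and with the G2/M sum alone, knockout in red and wild type in blue. Mcm5 and Pcna are higher in each next step of the shaded range, Rrm2, Pclaf and Hist1h1b are highest beyond it, and Cdkn2a is lowest inside it, with 2.16 to 4.43 CPM in the knockout library.

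Measured genes of mitosis outside the rule were already above comparison level, with 9 of 14 members (median 1.95) and 12 of 15 (2.95) at least 2-fold higher. Among all genes 3.6% and 6.5% were. Of the 44 listed, 6 reached 20 CPM in comparison cells of at least 1 library, so most were measured only through S phase cells. Those could not lie on the lower side. Stmn1, a tubulin-binding protein, was at 138 CPM (129 to 149) and 337 CPM (307 to 369), against 4.63 and 6.81 CPM, and Smc2, a condensin subunit, at 111 and 113 CPM, against 13.3 and 9.44 CPM. Growth genes were moderately higher. All 28 measured ribosome biogenesis and MYC target genes lay above 0 in both libraries, but 4 and 10 passed 2-fold (medians 0.65 and 0.76). Among them Nop56, a nucleolar RNP protein, had log2 ratios of 1.32 and 1.81, and Ran, the GTPase of nuclear transport, of 1.04 and 1.43. Nuclear-encoded oxidative phosphorylation genes had 0 of 45 members 2-fold away from 1 in either library (medians 0.22 and 0.32), and mitochondrially encoded transcripts had medians of -0.06 (12 measured) and 0.00 (9 measured).

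Most genes of large peritoneal macrophages lay below comparison level but within 2-fold of it, as most of all genes did. Of 28 measured, 2 had a ratio above 0 for the knockout and 6 for wild type. In each library 0 were 2-fold higher and 2 lower, Cxcl13 and Tgfb2, beside 0.469% and 0.987% of all genes lower. The medians were -0.24 and -0.38, against 0.04 and 0.12 over all genes. Gata6, the factor that sets this identity, was at 143 CPM (133 to 154) and 112 CPM (95.2 to 131) in S phase cells, against 172 and 152 CPM. Timd4, a receptor for phosphatidylserine that marks long-resident macrophages, was at 68.9 and 85.6 CPM, against 129 and 161 CPM. Cxcl13, a B cell chemoattractant, was at 183 CPM (172 to 195) and 1542 CPM (1478 to 1609), against 626 and 4010 CPM, and Tgfb2 at 247 and 171 CPM, against 502 and 393 CPM. Icam2 and Alox15, by contrast, had log2 ratios of -0.10 and -0.03 for the knockout and 0.21 and -0.04 for the wild type cells. Genes of small and recruited macrophages had medians of 0.04 (10 measured, 6 above 0) and 0.73 (12 measured, 9 above 0). Past 2-fold higher were Mgl2 (1.17) for the knockout and Folr2 (1.06) and H2-Aa for wild type, and 1 cell gave 26.1% of the UMIs of Folr2 there. Mgl2 and Folr2 were picked after their values were seen. H2-Aa, a class II chain gene, was at 84.1 and 214 CPM, against 89.1 and 104 CPM, and its wild type log2 ratio of 1.04 turned to -0.66 in members with an S sum of 15 or more. Immediate early genes had medians of -0.25 and -0.71 over 18 members, with 0 past 2-fold in either library. Jund was the furthest on average, at 172 and 308 CPM, against 296 and 605 CPM.

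**Figure D4:**
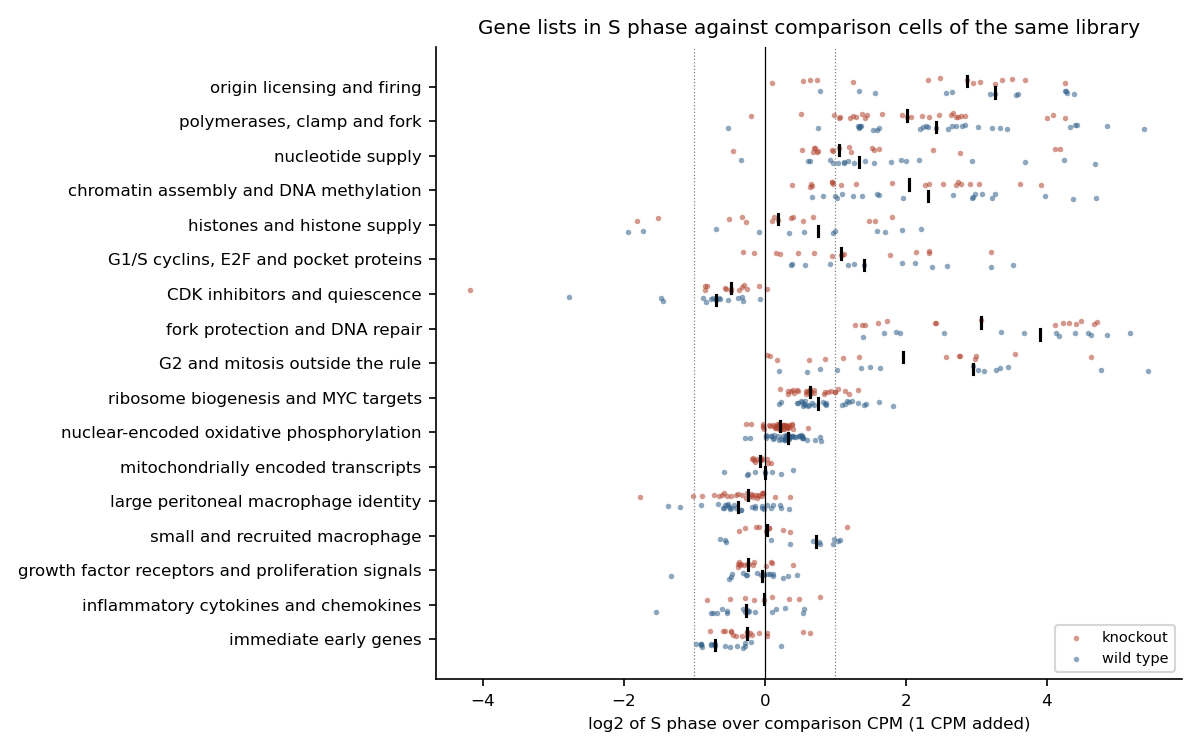
log2 ratio of S phase over comparison CPM, with 1 CPM added, of each measured member of the gene lists, rule genes left out, in the knockout (red) and wild type (blue) library, with black bars at the medians and dotted lines at 2-fold. The replication lists lie to the right, with medians up to 3.06 and 3.9 for fork protection. Of the 37 genes on that list, 2 reached 20 CPM in comparison cells of at least 1 library. CDK inhibitors, large macrophage identity and immediate early genes have medians under 0.

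S phase cells were found among macrophages with a high and with a low sum of MHC class II transcripts. With the summed H2-Aa, H2-Ab1 and H2-Eb1 at 10 or more UMIs per 10000, 15 of 217 knockout (6.91%, 3.92 to 11.1%) and 8 of 65 wild type S phase cells (12.3%, 5.47 to 22.8%) were class II high. Among comparison cells the shares were 3.64% and 6.06%. Read the other way, S phase cells were 5.91% (3.34 to 9.55%) of 254 class II high and 3.31% (2.87 to 3.79%) of 6106 class II low cells in the knockout library. In the wild type library they were 1.86% (0.807 to 3.63%) of 430 and 0.978% (0.741 to 1.27%) of 5829 cells. The intervals of the latter pairs overlap in both libraries. Thinned to 5000 UMIs per cell, the class II high share of knockout S phase cells was 6.53% (3.78 to 10.4%) and that of comparison cells 3.63% (3.12 to 4.19%), and these intervals overlap. For wild type the thinned shares were 18.8% (10.4 to 30.1%) and 7.15% (6.44 to 7.91%), which do not overlap. These S phase cells are not the same cells, since 161 of the 245 knockout and 44 of the 69 wild type ones were members before thinning. With the limit at a class II sum of 5 the wild type S phase share was 21.5%, and at 20 it was 6.15%. Near the limit, 7 knockout and 6 wild type S phase cells had a class II sum of 5 to 10.

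The knockout library held the larger share of S phase cells and the smaller share of cells with a high G2/M sum. S phase cells were 3.41% (2.98 to 3.89%) of the knockout and 1.04% (0.802 to 1.32%) of the wild type library, and the intervals do not overlap. The rule S genes were also higher in knockout comparison cells, at a summed 72.6 CPM against 48.5 CPM in wild type ones. Over all filtered cells the median S sum was 0.621 for the knockout and 0 for wild type. The part of this offset in the shares was not tested. Cells with a G2/M sum of 5 or more were 2.15% (1.81 to 2.54%) and 4.12% (3.64 to 4.64%). Both kinds together were 5.57% (5.02 to 6.16%) and 5.16% (4.63 to 5.74%), with intervals that overlap. The libraries differed more in the share of each stage than in the sum. Thinned to 5000 UMIs per cell, which left out 152 knockout and 355 wild type cells, the S phase shares were 3.95% and 1.17% and those of G2/M 2.24% and 4.22%. Thinning also changed which cells passed. Of the 245 knockout and 69 wild type cells in S phase after it, 161 and 44 were members before it. With 10 or more per 10000 of the 10 genes outside the rule in place of the rule genes, the S phase shares were 0.692% and 0.479%, a setting that changes the genes and, since the median of that sum was under 10 in the members, also how strict the limit is. The wild type members also lay nearer to the G2/M limit, with 50.8% of them against 24.0% of the knockout members at a G2/M sum of 2 to 5. The F4/80 gate can set shares of cells, and its part was not tested.

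Among the genes furthest apart between the S phase cells of the libraries were those of secreted and immune products. Of 5337 genes that reached 20 CPM in at least 1 library, 114 (2.14%) were 2-fold or more up and 113 (2.12%) 2-fold or more down in knockout S phase cells. Scaled by TMM factors these counts were 88 and 130, and by median of ratios 90 and 129. In comparison cells 87 (1.72%) of 5047 were higher and 104 (2.06%) lower, and TMM shifted the log2 ratios there by -0.28 and those in S phase cells by -0.09. Spp1, which encodes osteopontin, was at 525 CPM in knockout and 0.714 CPM in wild type S phase cells, where it had 1 UMI, against 586 and 5.28 CPM in comparison cells. From this 1 UMI the log2 ratio in S phase cells, with no CPM added, has an interval of 7.04 to 14.83. Chil3, a chitinase-like protein with close paralogs whose reads may be shared, was at 533 and 22.8 CPM, against 432 and 17.5 CPM. Arg1, arginase, had log2 ratios of knockout over wild type of 2.03 in S phase and 1.74 in comparison cells, and the small GTPase gene Rhoc of 1.97 and 1.93. On the lower side stood Tnfaip3, an inhibitor of NF-kB signalling, at 1.89 CPM (10 UMIs) in knockout and 96.3 CPM in wild type S phase cells. Ccrl2 (-3.65), the neutrophil chemokine genes Cxcl1 (-3.51) and Cxcl2 (-3.43), Ccl2 (-3.5) and Cxcl13 (-3.07) were lower as well. Of 16 inflammatory genes measured in S phase cells 13 were 2-fold lower in the knockout library (median -2.63), and of 18 in comparison cells 16 were (-2.47). Cells of both classes come from the same 2 libraries, so one is no independent check of the other.

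Members of both libraries passed the same limit on the sum of the 10 rule genes, so the levels of these genes between the libraries are a description of the choice. Their median log2 ratio was 0.04, and 1 of them, Cdca7, was at 86.7 and 42.8 CPM (log2 ratio 1.0). For lists without rule genes, medians of knockout over wild type were 0.16 for origin licensing (16 measured), -0.08 for polymerases, clamp and fork (29 measured), -0.08 for nucleotide supply (20 measured) and -0.06 for fork protection (16 measured), beside 0.12 for all genes tested. Among genes lower in knockout members, Pclaf had -1.61, Stmn1 -1.28 and Spc24, a kinetochore gene, -0.96. In members with a G2/M sum of 2 to 5, Pclaf was at 77.7 CPM for the knockout and 156 CPM for the wild type cells, and Stmn1 at 255 and 451 CPM. The share of members in that range differs between the libraries, and its part in these values was not tested. Cdkn2a was at 3.79 and 13.6 CPM in the members and 85.7 and 98.4 CPM in comparison cells.

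A few genes stood higher in S phase than in comparison cells of one library and lower in the other. Retnla, a secreted product of alternatively activated and class II high macrophages, was at 334 CPM in S phase and 432 CPM in comparison cells of the knockout, and at 2544 and 1303 CPM in those of the wild type library. Single cells weigh on it, since 1 cell gave 23.7% of its UMIs in knockout and 1 cell 16.5% in wild type members. Cxcl2 was at 657 and 381 CPM for the knockout and 7108 and 8619 CPM for the wild type cells. Osm was at 73.3 and 52.0 CPM and at 101 and 154 CPM. Ccl2, a monocyte chemoattractant, went the other way, at 11.6 and 21.2 CPM for the knockout and 141 and 95.1 CPM for the wild type cells. These differences between libraries have no replicate and were not tested.

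**Figure D5:**
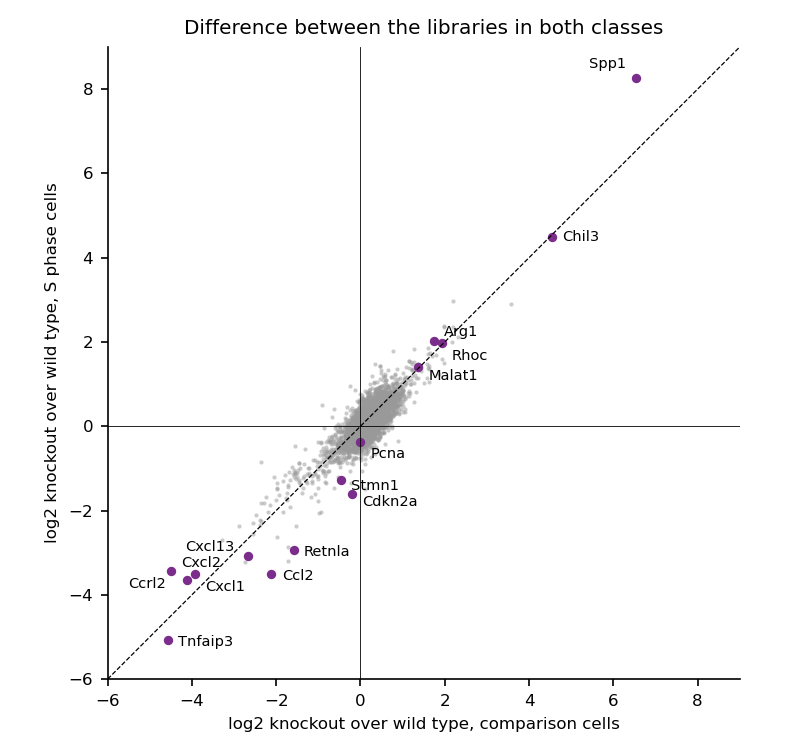
log2 ratio of knockout over wild type CPM, with 1 CPM added, in comparison cells (horizontal) and S phase cells (vertical), 1 point per gene that reached 20 CPM in at least 1 library in both classes, with the dashed line at equal ratios. Named genes are in purple, Spp1 at 6.55 and 8.26 in the upper right, and Stmn1 at -0.47 and -1.28 below the line.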

How the data were processed

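The deposited files hold UMI counts per gene and barcode, which the authors made, per the file headers, in Cell Ranger 6.1.2. The submitters' processing notes also name bcl2fastq, Seurat 4.1.0 and the mm9 assembly without their roles. All 55450 feature identifiers are in GENCODE M21 (GRCm38), which gave exon positions. The deposited libraries held 110956482 (knockout) and 96869041 UMIs (wild type), with medians of 15790.5 and 14569 per barcode, and the members 5280615 and 1401142 UMIs.

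Barcodes needed 500 or more genes and at most 10% mitochondrial UMIs. Scrublet's own threshold called 1 barcode per library (0.0157% and 0.0160%) and so did not work. No doublets were removed, and as an alternative the highest scores were removed at 0.8% per 1000 barcodes (324 and 313). For each library the UMIs of a class were summed and scaled to CPM. Ratios are log2 with 1 CPM added. Genes that reached 20 CPM in at least 1 class were counted at 2-fold, with no test, since each genotype has 1 library, and the sum over cells is no replicate. The 19 rule genes were left out of the counts of S phase against comparison cells, and were kept in those between the libraries.

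The members and the gene lists were chosen with earlier results of these data known. Named genes are the rule genes, 15 S phase markers, up to 4 genes per list with the largest mean ratio at 20 CPM, 12 higher and 12 lower outside the lists at 50 CPM, 12 higher and 12 lower between the libraries, and the 6 highest and 6 lowest differences between their ratios. Mitochondrial, ribosomal, immunoglobulin, sex-linked, haemoglobin and unnamed genes were left out of the last groups. Some genes that the rule names are not reported here. Genes named outside this rule are list members chosen after their values were seen. Scripts were tested on simulated data. Tools were Python 3.11.15, scanpy 1.11.5, scipy 1.17.1, numpy 2.4.6, matplotlib 3.10.9, pandas 2.3.3, R 4.3.3 and edgeR 4.0.16 (TMM factors only).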

Additional observations from a re-analysis of the deposited data

How the results depend on the processing

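In 12 of 12 settings, that of the report included, the S phase share of the knockout library was the higher one. It was 4.75% and 1.45% (wild type) at an S sum of 8, 1.42% and 0.367% at 15, 3.95% and 1.42% at a G2/M limit of 10, 0.692% and 0.479% with the 10 genes outside the rule, and 4.43% and 1.58% thinned to 2000 UMIs. Thinned to 5000 it was 3.95% for the knockout, and at a G2/M limit of 3 it was 0.767% for wild type. Thinning changes the cells too: at 2000 UMIs, 119 of 280 knockout and 29 of 98 wild type cells that passed were members of the report. All settings use the same libraries, and only that of the 10 genes outside the rule replaces the rule genes. The 12 settings are therefore no independent checks of each other. With those 10 genes the shares lay nearer to each other than in the report, and no interval was made for them. Class II high shares of comparison cells were 6.5% and 12.1% at a sum of 5 and 2.38% and 2.99% at 20, and 7.15% in the wild type library thinned to 5000; that of S phase cells was 3.69% (knockout) and 6.15% at 20, and 21.5% (wild type) at 5.

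At an S sum of 15, 50 genes were lower in knockout, and 519 higher and 123 lower in wild type S phase cells, and 254 were higher in knockout than wild type members. At 8, 33 were lower in wild type S phase cells, and 99 by TMM and 94 by median of ratios. With a pseudocount of 5 CPM, 72 were higher in knockout than wild type members. A minimum of 50 CPM gave 77 higher and 9 lower for the knockout, 145 and 20 for wild type, and 38 and 63 between the libraries, and one of 5 CPM gave 356 and 86, 615 and 191, and 433 and 248. In members with a G2/M sum under 2, a setting chosen after seeing the data, 85 genes were lower in wild type S phase cells and 228 higher in knockout than wild type members. The sign changed in the wild type library for Cenpf (-0.63), Nusap1 (-0.43) and Ccne1 (-0.26) in that setting and for H2-Aa (-0.66) at an S sum of 15. The values of Cenpf, Nusap1 and Ccne1 are those that no UMI in the members gives with 1 CPM added. In wild type comparison cells these genes were at 0.544, 0.347 and 0.197 CPM. Among wild type members with a G2/M sum above 0 and under 2, a count of 0 allows up to 5.23 CPM. No direction can therefore be read for these genes in that setting. Cenpf and Nusap1 are also terms of the sum which that setting limits. For H2-Aa the cause was not tested. Of 26 named ratios between the libraries past 2-fold, 23 stayed past it in every setting run. Leaving out members with under 10 UMIs of the rule genes, and cells with a B cell marker UMI, also chosen after seeing the data, moved no count by over 1.5 times. No paired analysis was possible because each genotype has 1 library. Levels in the 65 wild type members are the least precise.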
